A study of Mus musculus with 20 samples.

Results

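Isolated zinc finger genes are taken here as the protein-coding genes with a numbered Zfp symbol that have no other such gene starting within 200 kb of their own start on the same chromosome of the mm10 genome. GENCODE M21 holds 144 of them among 21951 protein-coding genes, after Zfp42 and Zfp352 were set aside. The other 245 numbered Zfp genes have a neighbour within that distance and are called clustered below. Just inside the distance limit were Zfp236 and Zfp516, 217.78 kb from each other, and Zfp433, whose nearest neighbour started 225.66 kb away. Just outside it were Zfp936 and Zfp715 at 199.06 kb and Zfp986 at 198.11 kb. The symbol is a name and not a protein class: Zfp36, for example, encodes a CCCH-type RNA-binding protein.

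Most proteins of this family carry C2H2 zinc fingers, short folds held by a zinc ion that read DNA, often strung into long arrays joined by a conserved linker. Many also carry a KRAB domain, which recruits the corepressor encoded by Trim28 and silences transposable elements, and in embryonic stem cells this silencing is a well-known function of the family. N6-methyladenosine (m6A) is the most common internal mark of mRNA. It is laid down co-transcriptionally by a complex with Mettl3 as its catalytic subunit, usually at an A within the five-letter sequence DRACH (D is A, G or T, R is A or G, and H is A, C or T), and is typically dense in long internal exons and near stop codons. Ythdc1 is the nuclear protein that binds m6A.

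The series profiled m6A in chromatin-associated RNA of mouse embryonic stem cells (strain C57BL/6), all kept with LIF and the inhibitors CHIR99021 and PD0325901. There were 5 groups of 2 immunoprecipitated libraries: a Mettl3 control, the Mettl3 knockouts KO1 and KO2, which share that control, a Ythdc1 control and a Ythdc1 knockout labelled cKO. The labels give neither how the genes were deleted nor whether KO1 and KO2 are clones, and they leave unsaid whether a group's 2 libraries are separate cultures, so the spread between them may be technical. The 10 matched input libraries were not analysed here. Each immunoprecipitated library has a list of 40980 to 46761 peaks, so a gene either holds a called peak or not, and the files give no read depth. Peaks were called in each library on its own, and without inputs less transcript and less m6A cannot be told apart. Peaks on the targeted genes do not check the labels, since a peak list does not measure expression: Mettl3 held 1 peak in each control, 0 in both KO1 libraries and 1 in both KO2 libraries, and Ythdc1 held 7 and 6 peaks in the cKO libraries against 7 and 7 in their controls. Of 12 stem cell marker genes 12 held a peak in some library and 9 in all 10. Of 9 fibroblast markers 7 held one and 3 did so in all 10, with Col3a1 and Thy1 at none. Of the 21562 protein-coding genes in neither Zfp list 54.8% held a peak and 33.2% did so in all 10.

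The exonic peak regions shown here, among the highest found in all 10 libraries, lay in coding sequence upstream of the stop codon. Intronic regions were left out of this choice. The 10 libraries include those of both Mettl3 knockouts, and whether peaks called there mark m6A was not tested. A region is the union of peaks that overlap by at least 1 bp on 1 strand, and its height is the lowest percentile that its fold enrichment (the authors' ratio at the summit) reached within the peak lists concerned. The 8 highest exonic regions found in all 10 libraries belonged to Zfp1, Zfp318, Zfp839, Zfp62, Zfp592, Zfp516, Zfp651 and Zfp639. The 81 bases around the median summit of 7 of them are shown because they lie at the median summit of the strongest exonic regions that every library held. Capitals mark DRACH matches and the summit is base 41. The Zfp1 window is chr8:111669684-111669764 on the plus strand, in the last coding exon at -836 nt along the transcript from the last base of the stop codon. That of Zfp318, a nuclear protein of RNA processing in B cells, is chr17:46398851-46398931 on the plus strand, in an earlier coding exon. The others are Zfp839 at chr12:110855390-110855470 on the plus strand, Zfp62 at chr11:49215181-49215261 on the plus strand, Zfp592 at chr7:81025212-81025292 on the plus strand, Zfp651 at chr9:121763451-121763531 on the plus strand and Zfp639 at chr3:32520265-32520345 on the plus strand. Zfp62 and Zfp639 have their window in the last coding exon, and Zfp839, Zfp592 and Zfp651 in an earlier one. In Zfp62 that exon holds all 2724 nt of the coding sequence, and the window is at -2586 nt from the last base of the stop codon.
Zfp1: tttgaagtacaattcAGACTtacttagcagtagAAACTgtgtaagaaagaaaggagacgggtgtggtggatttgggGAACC
Zfp318: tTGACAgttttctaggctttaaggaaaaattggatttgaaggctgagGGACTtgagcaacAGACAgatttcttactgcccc
Zfp839: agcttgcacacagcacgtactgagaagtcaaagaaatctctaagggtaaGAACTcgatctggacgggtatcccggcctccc
Zfp62: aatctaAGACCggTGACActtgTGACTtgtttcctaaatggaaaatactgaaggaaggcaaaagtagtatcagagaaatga
Zfp592: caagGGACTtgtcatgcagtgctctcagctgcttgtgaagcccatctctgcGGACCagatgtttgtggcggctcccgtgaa
Zfp651: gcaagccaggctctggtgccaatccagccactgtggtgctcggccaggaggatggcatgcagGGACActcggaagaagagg
Zfp639: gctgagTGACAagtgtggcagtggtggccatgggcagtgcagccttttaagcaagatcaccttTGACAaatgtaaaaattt
Each window held at least 1 DRACH match, and Zfp592 held 2 of the form GGAC, the letters most often found at m6A sites. None held the codons of the linker between fingers. The coding sequences of Zfp318, Zfp839, Zfp592 and Zfp639 hold none of these codons in frame, so their windows could not. Summits of the 10 libraries fell within 7 bp of each other in Zfp62 and within 26 bp in Zfp318, but were spread over 140 bp in Zfp639, 445 bp in Zfp839, 739 bp in Zfp651, 993 bp in Zfp1 and 1606 bp in Zfp592. In those 5 the summits of the libraries do not all fall within the window shown.

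A second set of windows was picked after the data were seen: the regions in all 10 libraries that were highest among those with a summit in the last coding exon, between the first and the last linker match of a gene with 5 or more. Their highest height was 83.2, against 93.6 or more for the 8 above. They belonged to Zfp39 (chr11:58890224-58890304 on the minus strand), Zfp958 (chr8:4628542-4628622 on the plus strand) and Zfp37 (chr4:62191960-62192040 on the minus strand). They are shown because the linker codons of a finger array can themselves hold the DRACH word AAACC.
Zfp39: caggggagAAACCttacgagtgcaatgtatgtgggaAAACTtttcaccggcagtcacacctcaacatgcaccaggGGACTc
Zfp958: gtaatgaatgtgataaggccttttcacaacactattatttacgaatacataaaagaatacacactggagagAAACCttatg
Zfp37: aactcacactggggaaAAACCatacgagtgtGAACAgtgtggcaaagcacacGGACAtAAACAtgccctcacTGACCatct
Each of these windows holds 1 linker match, and the AAACC in capitals is part of it. A match nearby follows largely from the choice of regions centred inside an array. Library summits were spread over 1323 bp in Zfp39, 589 bp in Zfp958 and 704 bp in Zfp37, so they do not all fall within these windows.

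A peak was found on 127 of the 144 isolated genes (88.2%), and on 105 of them (72.9%) in all 10 libraries. Another 22 held a peak in 2 to 9 libraries. The per-library number stayed between 114 and 120: it was 119 and 119 for the Mettl3 controls, 114 and 116 for KO1, 119 and 118 for KO2, 120 and 118 for the controls of Ythdc1, and 118 and 119 for cKO. KO1 had the lowest numbers, and the other 4 groups overlapped. Among the clustered genes 95.1% held a peak and 82.9% did so in all 10 libraries, and among the 21562 other protein-coding genes 54.8% and 33.2%. The share of isolated genes with a peak was below that of clustered genes and above that of other genes in 10 of 10 libraries. This order says nothing of levels of m6A, since unexpressed genes count as genes with no peak.

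The 17 isolated genes with no peak in any library were Zfp366, Zfp385b, Zfp385c, Zfp395, Zfp474, Zfp488, Zfp503, Zfp541, Zfp558, Zfp616, Zfp641, Zfp648, Zfp706, Zfp735, Zfp804a, Zfp831 and Zfp957. Among the 105 genes with a peak in every library the number of peaks summed over the 10 lists ran from 10 to 227 with a median of 29. Zfp704 held the 227, which is 5.18% of all 4386 peaks on isolated genes, and Zfp462 and Zfp808 came next with 131 and 129. Only 5 genes had exactly 1 peak in each library.

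**Figure D1:**
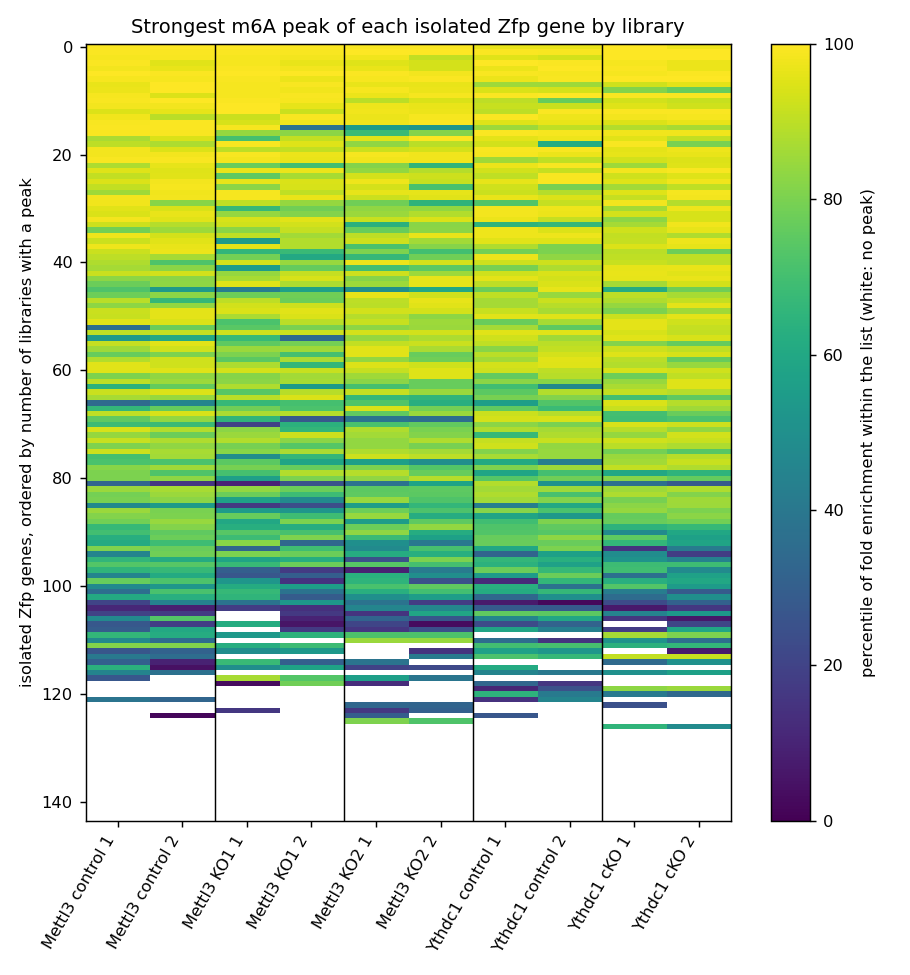
Each row is 1 of the 144 isolated Zfp genes and each column 1 of the 10 immunoprecipitated libraries; colour gives the percentile, within that library's list, of the fold enrichment of the gene's strongest peak, and white means no peak. The 105 genes with a peak in every library fill the top, 22 genes have gaps, and 17 rows are empty.

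Some of the 22 partly marked genes followed the groups. Zfp362 held 1 peak in each Mettl3 control and in all 4 libraries of the Ythdc1 comparison, and none in the 4 Mettl3 knockout libraries. Zfp511 and Zfp449 separated the knockouts of Mettl3 from each other: Zfp511 held a peak in both KO2 libraries and in no other library, and Zfp449 held 2 peaks in each control and 3 in each KO2 library but 0 in KO1. Zfp521, a cofactor of Ebf transcription factors, did the reverse, with 3 peaks in each control, 2 and 3 in KO1 and 0 in both KO2 libraries. Zfp358 and Zfp202 held peaks in the 4 Ythdc1 libraries and in none of the 6 Mettl3 libraries. Zfp703 held peaks in cKO alone, 1 and 2 of them. With 22 genes and 10 libraries such patterns are descriptions of single genes, picked because they separate groups. Of the other coding genes 4665 held a peak in 1 to 9 libraries, and how many of these separate groups was not counted. Some of the peaks were low, as in Zfp362 with fold enrichments of 3.98 to 5.09, where a missing peak may lie below the calling threshold.

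Within the genes, peaks were divided by the position of the summit on 1 transcript per gene, the coding transcript with the longest coding sequence. On the isolated genes, 22.2% ± 1.36 (SD, n = 10 libraries) of summits lay in the coding part of the last coding exon, 19.7% ± 2.13 in earlier coding exons, 11.8% ± 0.863 in the 3' UTR, 3.61% in the 5' UTR and 35.6% ± 3.19 in introns. The remaining 7.11% lay in the gene body outside that transcript. For the clustered genes the last coding exon held 41.0% and earlier coding exons 3.75%, and for other coding genes 9.26% ± 1.18 and 19.8%. The isolated genes therefore stood between the lists for the last exon, 18.8 percentage points below the clustered genes and 12.97 points above the others, each in 10 of 10 libraries. Weighting each gene with a peak equally, an alternative chosen after the data were seen, raised the last-exon share to 37.2%, 55.6% and 15.5% for isolated, clustered and other genes. Leaving out Zfp704 gave 23.4%.

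Exon structure differed between the lists as well. The coding part of the last coding exon had a median of 929 nt in the isolated genes with a peak (52.7% of their coding sequence), 1423 nt (86.8%) in the clustered and 159 nt (11.9%) in other genes with a peak. Per kb of that exon part, isolated genes held 0.739 ± 0.0490 peaks per library, clustered genes 0.780 ± 0.0442 and other genes 0.776 ± 0.0918, values that differ by less than 1 SD between libraries. On earlier coding exons isolated genes held 0.515 ± 0.0397 peaks per kb against 0.344 ± 0.0714 and 0.342 ± 0.0521. The lowest library of the isolated genes (0.478) lay above the highest of the clustered (0.458) and of the other genes (0.442). Such SDs and ranges, here and below, are over libraries that share the same genes, so they do not measure the spread between genes. Zfp638 and Zfp106 held 52 and 50 earlier-exon summits over the 10 libraries. In the 3' UTR the densities were 0.229, 0.262 and 0.224 peaks per kb, and in introns 0.0291, 0.0554 and 0.0244.

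**Figure D2:**
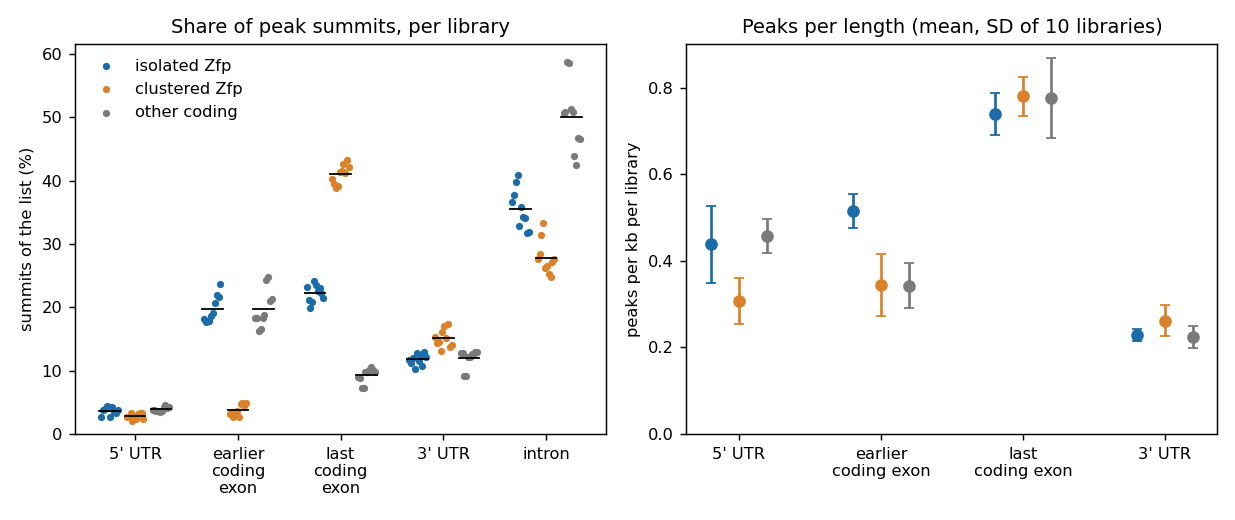
Left, percent of peak summits by position for isolated Zfp, clustered Zfp and other coding genes, with 1 point per library and the mean as a line; right, peaks per kb of each exon class per library, mean and SD of 10 libraries over genes with a peak. Isolated genes stand between the other lists for the last coding exon (22.2%, 41.0% and 9.26%), and their density is highest of the 3 lists in earlier coding exons (0.515 peaks per kb).

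Measured along the spliced transcript, the median exonic summit of the isolated genes lay at -897.7 nt from the last base of the stop codon as a mean over libraries, negative being upstream, with a library range of -961 to -801 nt. It lay at -624.2 nt in the clustered genes and -587.6 nt in other genes. Within 200 nt of the stop codon fell 17.4% ± 1.20 of exonic summits on isolated genes, 15.1% ± 1.09 on clustered genes and 24.2% ± 1.34 on other genes. The share at the stop codon was thus lower on both kinds of Zfp gene than on other coding genes, and the ranges over libraries did not overlap those of the other genes.

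**Figure D3:**
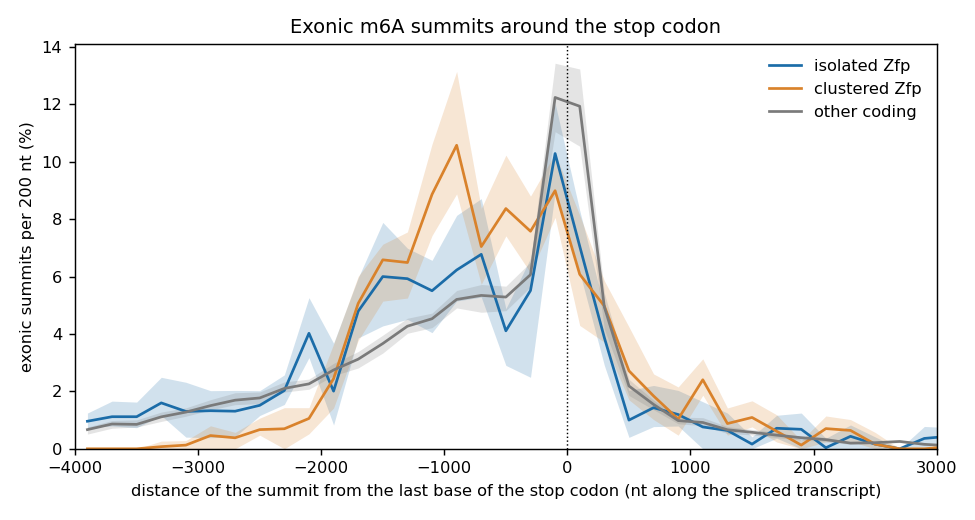
Percent of exonic summits per 200 nt against distance from the last base of the stop codon, in nt along the spliced transcript; lines are means and bands ranges of 10 libraries. Within 200 nt of the stop codon lie 24.2% of summits on other coding genes and 17.4% on isolated Zfp genes, whose highest bin in all 10 libraries is still the 200 nt up to the end of the stop codon.

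Isolated genes were a mixture with respect to finger arrays. In-frame matches to the codons of the Gly-Glu-Lys-Pro linker (11 letters, with any base allowed at the last position of the Gly, Glu and Lys codons) were counted in the coding sequence, and 67 genes had 0, 38 had 1 to 4 and 39 had 5 or more, up to 20 in Zfp808. Genes with 5 or more held 41.7% of their summits in the last coding exon (library range 35.9 to 45.2%) and 2.57% in earlier coding exons. Genes with 0 held 13.9% (9.96 to 16.7%) and 28.5%, and those with 1 to 4 held 19.8% and 19.2%. The ranges of the last-exon share in the lowest and highest class did not overlap. Clustered genes with 5 or more linkers had 43.5% of summits in the last coding exon, and its library range (40.5 to 46.3%) overlapped that of the isolated genes with long arrays. In introns the isolated genes with long arrays held 20.6% (16.3 to 23.6%) and the clustered ones 27.6% (24.4 to 33.4%), ranges that do not overlap, and in earlier coding exons the clustered ones held 0.651%. Of the 39 genes with long arrays 35 held a peak in all 10 libraries (89.7%), against 45 of 67 (67.2%) with no linker. The exceptions were Zfp949, missing in 1 library, and Zfp558, Zfp616 and Zfp735, which held none.

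Inside the long-array genes the summits leaned to the part before the first linker match, which can itself include finger codons. In 34 genes with a peak whose array lay in the last coding exon, the stretch from the first to the last linker made up 66.9% of the coding length of that exon and held 53.8% ± 3.70 of its summits (library range 48.8 to 58.3%). The part before the first linker made up 25.6% of the length and held 38.7% ± 3.47. In the clustered genes the array made up 62.5% of the length and held 58.2% ± 3.23 of summits, with a library range of 52.1 to 63.5% that includes the share of the length. The part before the first linker made up 28.4% of their length and held 35.2% ± 2.57 of summits. In both lists that part thus held, on average, more summits than its share of the length. The difference between the lists was not tested.

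**Figure D4:**
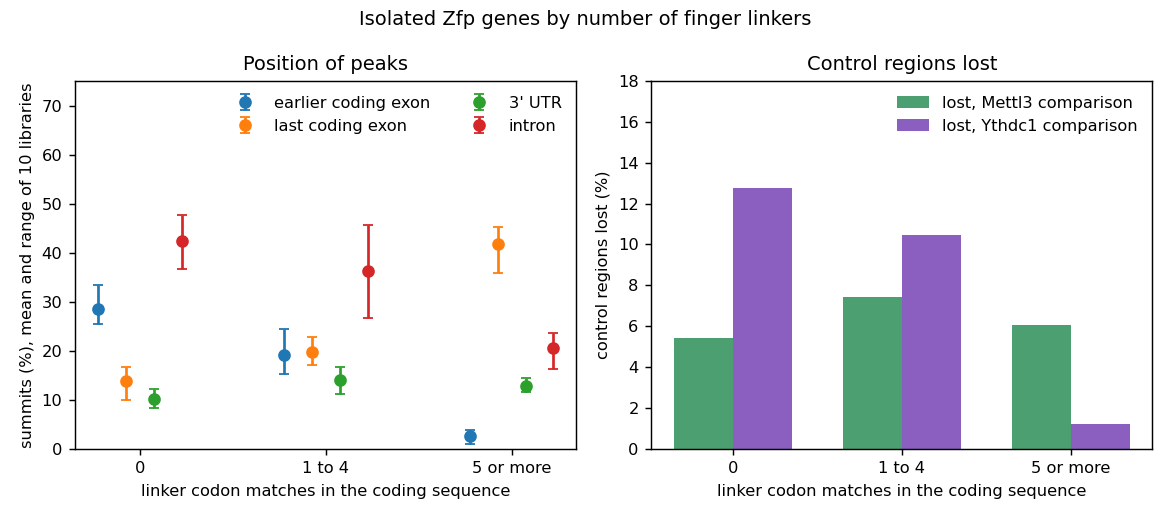
Left, percent of summits by position in isolated genes with 0, 1 to 4, or 5 or more linker codon matches, as means with the range of 10 libraries; right, percent of control regions lost in each comparison. The last-exon share rises from 13.9% to 41.7% across the classes, and 1 of 81 control regions was lost in the Ythdc1 comparison in the class with 5 or more.

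Letters near exonic summits were counted on the transcript strand within 50 nt. GGAC was found at 41.3% ± 1.76 of exonic summits of isolated genes against 27.7% of all windows of that length on the same transcripts. DRACH in any of its 18 words was found at 94.0% against 86.9%. GGAC, when followed by A, C or T, and AAACC are themselves DRACH words. AAACC was found at 17.9% ± 1.16 against 15.4%, but in the last coding exon at 29.0% ± 2.08 against 31.6%, and the linker codons, which contain AAACC where their open letters allow, at 24.3% ± 2.81 against 27.2%. GGAC remained above its background in that exon, at 37.4% ± 2.32 against 23.6%. Linker letters were thus no more frequent at the summits of last coding exons than elsewhere in them. A match describes the letters of a window and does not place a methylated base.

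Regions found in every library lay most often in coding exons. Over all 10 libraries the isolated genes held 673 regions, of which 214 (31.8%) were found in every library, against 40.5% of regions on clustered genes and 22.6% on other genes. In the last coding exon 65 of 92 regions (70.7%), on 64 genes, were found in all 10 libraries, in earlier coding exons 54 of 111 (48.6%), in the 3' UTR 26 of 65 (40%) and in introns 49 of 342 (14.3%).

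In the Mettl3 comparison most regions of isolated genes were still called as peaks in both knockouts. A control region holds a peak in both controls; it is lost when none of the 4 knockout libraries holds a peak there, kept when all 4 do, and a region is gained when all 4 knockout libraries and neither control hold one. Of 378 control regions on 118 isolated genes, 23 were lost (6.08%), where over all protein-coding genes 8.4% were. Kept were 267 regions (70.6%), over a background of 66%. Gained were 6 of the 291 regions found in all 4 knockout libraries (2.06%), over a background of 4.19%. Isolated genes that lost every control region numbered 2 of 118 (1.69%; background 3.94%), and 51 (43.2%; background 42.8%) kept every one. The shares lost and gained lay below the background, and the shares kept were near it or above it. A design of 2 controls against 4 knockouts cannot give a two-sided exact permutation p below 0.0667, and 2 against 2 cannot go below 0.333, so no test of a single value is given.

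The genes that lost every control region were Zfp362 and Zfp512, each with 1. The Zfp362 region (chr4:128773522-128774338, minus strand, in the 3' UTR) had fold enrichments of 4.51 and 3.98 in the controls and no peak in the 4 knockout libraries. The Zfp512 region (chr5:31452476-31452694, plus strand, intronic) had 4.20 and 3.81 and likewise none. Lost regions stood low within their lists: the highest, in an intron of Zfp277 (chr12:40416245-40416597, minus strand), had 4.57 and 4.94 in the controls and a height at percentile 46.4. Next in height came regions of Zfp532 (4.47 and 5.21, intronic), Zfp369 (4.89 and 4.23) and Zfp808 (4.26 and 4.18), the last pair outside the chosen transcript. When control regions of all coding genes were ranked into 5 bins of height, 12 of 68 regions of isolated genes were lost in the weakest bin (17.6%), 7 of 51 in the second (13.7%), 4 of 72 in the third (5.56%), and 0 of 100 and 0 of 87 in the strongest bins. Other coding genes lost 14.6%, 15.1%, 9.47%, 2.92% and 0.183% in the same order, so in the weakest bin the isolated genes had the higher share and in the other 4 bins the lower.

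The kept regions included the strongest. Zfp318 had fold enrichments of 18.5 and 16.7 in the controls, 15.3 and 15.4 in KO1 and 19.9 and 20.2 in KO2. Zfp62 had 18.6 and 21.2, then 19.1 and 17.5, then 16.1 and 17.7 in the same order, and Zfp1, Zfp839 and Zfp945 followed in height. These 5 regions stood at percentile 96.7 or higher in each of the 6 lists, although fold enrichments of different libraries share no common scale. Gained regions lay in 5 genes. The highest, in an earlier coding exon of Zfp654 (chr16:64851265-64851768, minus strand), had 7.55 and 7.72 in KO1 and 4.80 and 5.70 in KO2 and no peak in either control. The others were 2 regions of Zfp326, which encodes a protein tied to splicing and transcript elongation, and 1 each in Zfp236, Zfp322a and Zfp148.

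By position, 1 of 86 control regions in the last coding exon was lost (1.16%, in Zfp619), 2 of 73 in earlier coding exons, 5 of 47 in the 3' UTR (10.6%), 10 of 127 in introns (7.87%), 0 of 10 in the 5' UTR and 5 of 35 outside the transcript (14.3%). On other coding genes the same shares were 5.91%, 7.51%, 8.43%, 9.06%, 7.21% and 12.3%. Clustered genes lost 4.69% of 533 control regions, and 4 of 217 in the last coding exon. Taken apart, KO1 lacked a peak in both its libraries at 49 control regions of isolated genes (13.0%; background 15.6%) and KO2 at 43 (11.4%; background 14.1%), of which the 23 above were missing in both. A single knockout library lacked a peak at 17.6% ± 1.02 (SD, n = 4) of the control regions, with a range of 16.7 to 19.0%. Without Mettl3 control replicate 1 or replicate 2 the lost regions numbered 42 each and the gained 16 and 14, and without KO1 replicate 1 the genes that lost every region numbered 4; a rule over fewer libraries is easier to meet. Markers of another cell type moved with the same groups, as did 1 of the 12 stem cell markers, Utf1: the fibroblast markers Col1a1, Col1a2, Col5a2 and Lox held a peak in both Mettl3 controls and in none of the 4 knockout libraries, while Pdgfrb, Fn1 and Vim held one in all 6. Utf1 held 1 peak in each Mettl3 control (7.65 and 8.82) and none in the 4 knockout libraries. As lists, the fibroblast markers lost 5 of 9 control regions (55.6%) and the stem cell markers 1 of 25 (4%), over a background of 8.4%. The part of another cell type in the lost regions of isolated genes was not tested.

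In the Ythdc1 comparison regions of isolated genes were lost in a smaller share than those of coding genes as a whole. Of 355 control regions on 118 genes, 34 on 25 genes were lost in both cKO libraries (9.58%; background 17.7%) and 289 were kept (81.4%; background 72.1%). Gained were 42 of 353 regions with a peak in both cKO libraries (11.9%; background 15%), on 28 genes. Every control region was lost by 3 of 118 genes (2.54%; background 7.9%) and kept by 80 (67.8%; background 51.4%). Clustered genes lost 7.63% and kept 86.9% of 472. A single cKO library lacked a peak at 14.6% and 13.5% of the control regions of isolated genes, where other coding genes lacked one at 23.6% and 22.8%. Members of this family are near-copies in parts of their sequence, and reads that fit several genes could have been split or dropped, a step that no source used here describes.

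The lower share of lost regions held at every position that was counted and at every height. By position the isolated genes lost 3 of 79 in the last coding exon (3.80%; 11.7% on other coding genes), 6 of 84 in earlier coding exons (7.14%; 17.8%), 2 of 38 in the 3' UTR (5.26%; 13.6%), 21 of 114 in introns (18.4%; 22.1%), 2 of 16 in the 5' UTR (12.5%; 13.4%) and 0 of 24 outside the transcript (16.4% on other coding genes). From the weakest to the strongest height bin they lost 28.6%, 15.4%, 5.48%, 2.82% and 0%, against 34.7%, 26.9%, 19.3%, 7.60% and 1.20% on other coding genes. By linkers, genes with 0 lost 24 of 188 regions (12.8%), those with 1 to 4 lost 9 of 86 (10.5%), and those with 5 or more lost 1 of 81 (1.23%), an intronic region of Zfp950. Clustered genes of the same classes lost 13.0%, 4.72% and 7.90%, which do not fall in that order. In the Mettl3 comparison the same classes lost 5.41%, 7.45% and 6.06%, without such an order. Among the 113 isolated genes that overlap no other gene on their strand 18 of 245 regions were lost (7.35%), and among the 31 that do overlap one 16 of 110 (14.5%). Without Ythdc1 control replicate 1 the lost regions numbered 57, without control replicate 2 they numbered 73, and without cKO replicate 2 they numbered 52, with 65 gained; the genes that lost every region numbered 5 without control replicate 2 or without cKO replicate 1. The stem cell markers Lin28a and Dppa5a held peaks in both Ythdc1 controls and in neither cKO library, while the other 10 of the 12 stem cell markers held a peak in both cKO libraries. That list lost 7 of 35 control regions (20%) and kept 25 (71.4%), near the backgrounds of 17.7% and 72.1%. The fibroblast list lost 4 of 11 (36.4%) and kept 5 (45.5%). The bearing of either list on the lost regions of isolated genes was not tested.

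**Figure D5:**
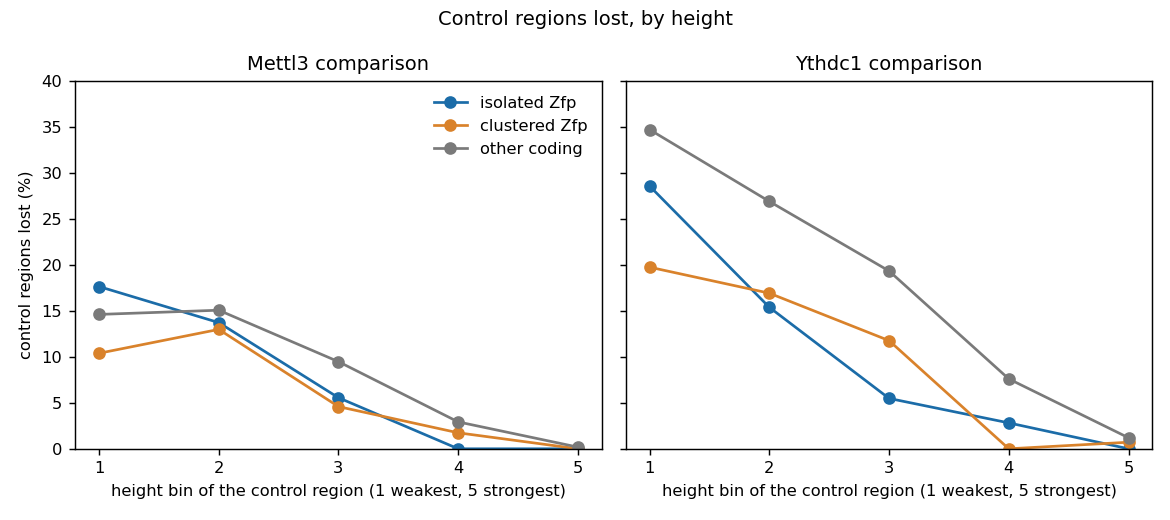
Percent of control regions lost against 5 bins of their height within the peak lists, for isolated Zfp, clustered Zfp and other coding genes, in the Mettl3 comparison (left) and the Ythdc1 comparison (right). In the Ythdc1 comparison the isolated genes lie under the other coding genes in all 5 bins, from 28.6% against 34.7% in the weakest to 0% against 1.20% in the strongest.

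Zfp346, Zfp410 and Zfp512 lost every control region in the Ythdc1 comparison. Zfp410, the transcription factor that drives expression of the chromatin remodeller Chd4, held its region in the 3' UTR (chr12:84343146-84343300, plus strand) with fold enrichments of 3.73 and 3.06 in the controls and no peak anywhere on the gene in cKO. Zfp512 held a last-exon region with 2.88 and 4.37 and likewise no peak in cKO. It was the only isolated gene that lost every control region in both comparisons, through different regions, since its lost region in the Mettl3 comparison was intronic. Zfp346, a protein that binds double-stranded RNA, lost 2 regions, and its 2 peaks in cKO replicate 2 lay elsewhere. The highest lost region was intronic in Zfp131 (chr13:119768740-119768901, minus strand), with 6.89 and 7.49 in the controls, followed by regions of Zfp516 (5.17 and 6.41), Zfp280d (5.94 and 4.79), Zfp536 (4.93 and 4.79) and Zfp710 (5.70 and 4.20). Zfp710 and Zfp644 lost most, 3 regions each.

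The highest kept regions belonged to Zfp592, Zfp1, Zfp318, Zfp408 and Zfp64. That of Zfp592 had 16.5 and 19.9 in the controls and 15.7 and 15.9 in cKO, and that of Zfp64 had 17.7 and 14.1, then 14.9 and 15.6.

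Of the 42 regions gained in cKO 18 were intronic, a smaller share than the 2769 of 3777 on other coding genes. Among all summits in cKO the intronic share was also smaller on isolated genes, 31.8% against 46.7% on other coding genes. The highest gained region stood at percentile 86.1 or above in both cKO lists. Zfp277 gained 4 intronic regions, with fold enrichments of 8.64 and 9.43 in the 2 cKO libraries at the highest (chr12:40375230-40375539, minus strand), then 8.33 and 6.47, 4.86 and 5.72, and 3.17 and 3.76. No control library held a peak at any of them. Zfp202 gained a region in its last coding exon (chr9:40211103-40212150, plus strand; 7.99 and 8.48), beside a kept region whose control values were 2.66 and 3.48. Zfp804b gained an intronic region (8.69 and 7.58), its sole peak in each cKO library, and held 1 peak in each of the 6 Mettl3 libraries, so that only the Ythdc1 controls lacked one. Zfp697 gained 2 (6.90 and 6.75 for the higher). Zfp608, a transcriptional regulator, gained 3 regions in coding sequence before the last coding exon and went from 1 peak in each control to 4 in each cKO library.

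At 2 places the comparisons pointed in opposite directions. The number of such places over all protein-coding genes is not given here, so the 2 are described singly. A region in an earlier coding exon of Zfp512b was lost in the Mettl3 comparison (chr2:181589658-181589995, minus strand; 2.95 and 2.59 in the controls) and gained in cKO (chr2:181589666-181589993; 2.80 and 3.57). A 3' UTR region of Zfp945 was likewise lost in the Mettl3 comparison (chr17:22848571-22848777, minus strand; 4.63 and 2.84) and gained in cKO (chr17:22848476-22848771; 4.86 and 5.19). Each comparison has its own controls, so the Ythdc1 controls lacked peaks that the Mettl3 controls held.

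Members with known roles were followed through lists. Of the chromatin and stem cell factors 15 are isolated genes, and 15 of 15 held a peak in all 10 libraries (72.9% of all isolated genes). They include Zfp57, a KRAB protein that maintains imprints, Zfp281 and Zfp322a, factors of pluripotency, Zfp462 and Zfp644, partners of histone methyltransferases, and Zfp592, Zfp687 and Zfp532, which form a chromatin complex together. Zfp281 held exactly 1 peak per library, always in its last coding exon, which holds all 2682 nt of its coding sequence. Its fold enrichments were 6.56 and 4.81 for the Mettl3 controls, 4.09 and 4.79 for KO1 and 4.61 and 5.35 for KO2. They were 6.72 and 12.9 for the controls of Ythdc1 and 5.42 and 7.26 for cKO. Of their 57 Mettl3 control regions 2 were lost (3.51%; background 8.4%) and 47 kept (82.5%; background 66%), with 1 gained. Of 59 Ythdc1 control regions 8 were lost (13.6%; background 17.7%) and 47 kept (79.7%; background 72.1%), with 6 gained. Of the 8, 3 lay in Zfp644 and 2 in Zfp462.

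Of 10 developmental factors 8 held a peak (88.2% of all isolated genes) and 3 (Zfp292, Zfp407 and Zfp423) did so in all 10 libraries (72.9%). Of 21 Mettl3 control regions they lost 1 (4.76%; background 8.4%) and kept 11 (52.4%; background 66%). Of 23 Ythdc1 control regions they lost 4 (17.4%; background 17.7%) and kept 15 (65.2%; background 72.1%), with 2 of the 4 in Zfp536, which restrains neuronal differentiation, and 2 in Zfp335, needed for neurogenesis. Of 12 RNA and translation factors 10 held a peak and 7 did so in all 10 libraries, beside the same shares of all isolated genes. Zfp36, which binds AU-rich elements and promotes mRNA decay, held 1 last-exon peak in every library, with 2.98 and 3.31 in KO1, 4.93 and 5.83 in KO2 and 4.63 and 4.81 in their controls. Zfp830 likewise held 1 last-exon peak in each. The last coding exon holds all 1092 nt of coding sequence in Zfp830 and 936 of 960 nt in Zfp36. Zfp598, a ubiquitin ligase for stalled ribosomes, held 7 and 6 peaks in the Ythdc1 controls and 3 and 4 in cKO. Of its 5 control regions there 1 was lost and 3 were kept. Peaks on all isolated genes averaged 446 in the Ythdc1 controls and 403 in cKO. The list lost 1 of 23 Mettl3 control regions (4.35%) and kept 17 (73.9%), and lost 5 of 25 Ythdc1 control regions (20%) and kept 17 (68%), over the same backgrounds.

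The partner genes of KRAB repression, such as the histone methyltransferase Setdb1 and the heterochromatin protein genes, are not Zfp genes. Of 15 listed, 14 held a peak (54.8% of other coding genes) and 11 in all 10 libraries (33.2%), with Trim28 itself at none. Of 46 Mettl3 control regions they lost 2 (4.35%; background 8.4%) and kept 33 (71.7%; background 66%). Of 69 Ythdc1 control regions they lost 20 (29.0%; background 17.7%) and kept 40 (58.0%; background 72.1%). Of the 20, 4 lay in Dnmt1 and 3 in Uhrf1, genes of maintenance DNA methylation, and Hdac2 lost its 2 control regions. These counts describe the lists, which were chosen with earlier results known.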

How the data were processed

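Chromatin-associated RNA without ribosomal RNA was mixed with an m6A control RNA, fragmented and immunoprecipitated, and stranded libraries were made from it, per the labels' protocols. The tools named are Trimmomatic 0.38, HISAT2 2.1.0, MACS2 and CASAVA with build mm10, per the submitters' processing notes. No source used here gives their settings or whether inputs entered peak calling. The authors deposited 1 peak list per library, none pooled. Each peak has a deposited display score (not used), the fold over background at its summit as a ratio, a −log10 p and a −log10 q-value, and a summit position. The lowest deposited −log10 q was 2.0 and the shortest peak 150 bp. Fold enrichment, the authors' value, was used within a list only.

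With Python 3.11.15 and GENCODE M21, a peak was given to each protein-coding gene whose body held its summit on the same strand; 86 of the 4386 peaks on members also lay in another coding gene. Calls were made over all protein-coding genes. The code of the call rule was tried on simulated lists in which peaks followed the class of each region with no missed peak. That trial does not show how missed peaks affect the calls. No p-value is given for the members. Position used the transcript with the longest coding sequence. Named genes were the 8 members with the highest exonic region in all 10 libraries; per comparison, the genes that lost every control region and the 5 highest lost, kept and gained regions; and the role lists. Members and lists were chosen with earlier results of these data known. A planned split by KRAB and finger patterns in proteins was not made, as protein sequences were not used here; linker codons were counted instead. Alternatives covered the peak threshold, list length, overlap, isolation distance, transcripts, overlapping genes and each replicate.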

Additional observations from a re-analysis of the deposited data

Results flagged for a closer look

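In 3 measures the 2 Mettl3 knockouts lay on opposite sides of both control libraries on the isolated genes, and the difference between KO1 and KO2 was not tested. Peaks on these genes numbered 458 and 470 for KO1, 430 and 424 for KO2 and 453 for each control, so that KO1 exceeded KO2 by 37 as a difference of means. The share of summits in the last coding exon was lower in KO1 than in KO2 by -3.53 percentage points as KO1 minus KO2. The share in introns was 5.97 points higher in KO1. On the other protein-coding genes the means for the control, KO1 and KO2 were 8.96%, 7.24% and 9.81% for the last coding exon and 50.8%, 58.6% and 51.1% for introns, so a difference between KO1 and KO2 in these shares was also present there.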

How the results depend on the processing

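Of 127 results under alternatives 103 kept their value within the stated limits and 24 did not. Windows of 25 nt gave 21.6% for GGAC, 9.72% for AAACC and 3.90% for the linker codons, by construction less than wider windows. The last-exon share was 25.6% over members with no overlapping same-strand gene and 37.2% with members weighted equally, and 22.0 to 22.5% with 1 library left out. In the Mettl3 comparison the genes that lost every region numbered 1 with a 500 kb limit and 1 over members with no overlapping gene. In the Ythdc1 comparison they numbered 5 when each list was limited to its 40959 peaks of highest −log10 q, and 18 regions were lost over members with no overlapping gene. With 1 library left out, Mettl3 lost regions numbered 28 to 42, gained 7 to 16 and genes that lost all 2 to 4; Ythdc1 lost regions numbered 48 to 73, gained 50 to 65 and genes that lost all 3 to 5. Every such rule is easier to meet with fewer libraries. Replicate numbers did not pair the libraries: over 7469 genes the correlations of same-numbered deviations were 0.0077, -0.0133, 0.0323 and 0.0161. Taken within replicate numbers as a replicate block, Mettl3 lost and gained regions numbered 63 and 28, and Ythdc1 lost and gained regions 86 and 76. Read depth is not known, so a missing peak may be one below the calling threshold.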

Other observations

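Of all peaks, 6.98% and 6.93% in KO1 had their summit on the strand opposite to a coding gene, and 9.67 to 10.7% in the other libraries. Peaks on the strand opposite to the isolated genes numbered 37 and 39 for the Mettl3 controls. For KO1 they numbered 29 and 18, and for KO2 43 and 32. For the controls of Ythdc1 they numbered 52 and 45, and for each cKO library 50. Zfp202 held more of them than any other isolated gene, 50 over the 10 libraries, with 8 in each Mettl3 control, where it held no peak on its own strand, and 2 and 3 in cKO, where it held 2 in each library on its own strand.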
